A study of Mus musculus with 4 samples.

Results

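The cells described here carried high levels of Acta2, the gene of smooth muscle alpha-actin, in single-cell RNA sequencing of the mouse olfactory epithelium. They were selected on their own counts of unique molecular identifiers (UMIs, tags that mark single captured RNA molecules). A cell was taken if it had at least 500 detected genes, at most 10% of UMIs from mitochondrial genes, at least 10 Acta2 UMIs, and at most 2 UMIs each of Omp and Gap43, the genes of mature and immature olfactory neurons. By this rule 393 of 9110 cells that passed the gene and mitochondrial limits were members, out of 9126 cells deposited. Since Acta2 chose the cells, its level in them and that of every gene that goes with it are given as a description, with no test.

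The libraries came from CD-1 mice, an outbred strain, and from papain-dissociated olfactory epithelium of newborn animals (P0) and of animals 3, 7 and 21 days after birth (P3, P7, P21), with no genetic change or treatment named. Each age had 1 library, made with 10x Genomics 3' chemistry version 2. The sample titles name olfactory sensory neurons and the protocol speaks of sorted samples, but how cells were gated and how many mice were pooled per library was not stated in them. With 1 library per age no difference between ages could be tested. All intervals are 95% intervals for counting error only (exact Poisson for levels, exact binomial for shares and for ratios of levels) and leave out the spread between mice and preparations. Those for levels and ratios rest on UMIs summed over cells, so they also leave out the spread between cells.

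Acta2 is the actin isoform of the contractile apparatus of smooth muscle, in which myosin II pulls on actin filaments when calcium and myosin light chain kinase activate it. The same gene is also expressed outside smooth muscle of vessel walls. Pericytes on capillaries carry it in part, myoepithelial cells around gland acini combine it with basal keratins, and activated or perivascular fibroblasts can express it together with collagens. Rgs5, a GTPase activator that damps G-protein signals, is commonly used as a pericyte and vascular smooth muscle marker. Myh11, the smooth muscle myosin heavy chain, is a marker of differentiated smooth muscle. The lamina propria under the olfactory epithelium holds vessels, Bowman's glands and fibroblasts.

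The Acta2-high cells fell into a minority with vascular genes and a majority with collagen genes. With at least 3 UMIs as the gate, Rgs5 was carried by 60 members (15.3%, 11.9 to 19.2%) and Myh11 by 70 (17.8%, 14.2 to 21.96%). The basal keratins Krt14 and Krt5 together reached 3 UMIs in 10 members (2.54%, 1.23 to 4.63%), all in the P3 library. Col1a1, the alpha 1 chain of type I collagen, reached 10 UMIs in 134 members (34.1%, 29.4 to 39.0%), and 164 members passed none of these gates. At least 1 Col1a1 UMI was found in 343 members (87.3%), against 64 of 1911 cells with 10 or more Omp UMIs (3.35%), which should lack the gene. The median depth was 3985 UMIs in the 393 members and 5248 in those neurons. Pericyte genes were found together in the Rgs5 carriers, as given below, and the other cells are called here by their leading genes.

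Cells just inside and just outside the Acta2 limit had medians close to each other. The 32 members with 10 or 11 Acta2 UMIs had medians of 2.5 Tagln, 8 Myl9 and 9 Col1a1 UMIs, while the 34 cells just outside, with 8 or 9 Acta2 UMIs, had medians of 2, 6 and 9. Per member, Acta2 spanned 10 to 197 UMIs with a median of 27. Members held 85.1%, 87.3%, 92.2% and 87.3% of all Acta2 UMIs at P0, P3, P7 and P21. The limits on Omp and Gap43 removed 8 further Acta2-high cells, 2 at P0 and 6 at P3. Of cells with 10 or more Omp UMIs, 5.31%, 12.03%, 4.63% and 0.481% had an Acta2 UMI at the 4 ages, although mature neurons should lack the gene.

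The members numbered 65 in the P0 library, 248 in P3, 75 in P7 and 5 in P21. As a share of cells in the library this came to 2.42% (P0, 1.87 to 3.07%), 7.70% (P3, 6.80 to 8.68%), 4.20% (P7, 3.32 to 5.24%) and 0.354% (P21, 0.115 to 0.823%). The intervals of neighbouring ages did not overlap, with P3 highest and P21 lowest. The sort can set such shares as well as the tissue, and its part was not tested. In cells thinned to 1500 UMIs and gated at 3 Acta2 UMIs the shares were 3.04%, 8.75%, 4.93% and 0.456%, in the same order. Median depth was 2732, 4120, 4687 and 3193 UMIs per member, against 3239.5, 5125.5, 4681.5 and 4411 in the other cells of these libraries. The P0 and P3 libraries shared 68 cell barcodes, and other pairs 1 to 9. Of the members, 7 carried a shared barcode, and 1 barcode was a member in both P0 and P3.

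**Figure D1:**
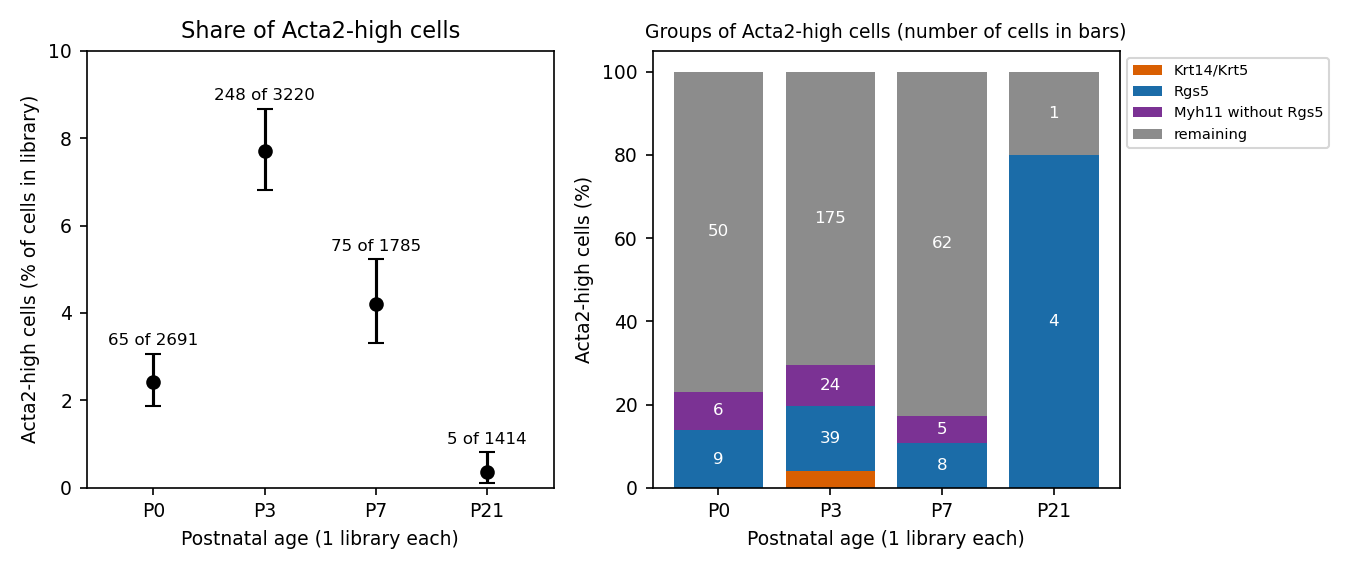
Left, the percentage of cells that were Acta2-high in each library (y axis) against postnatal age (x axis), with exact 95% binomial intervals and the counts above. Right, the percentage of the Acta2-high cells in each library that fell into the keratin, Rgs5, Myh11 and remaining groups, with cell numbers in the bars: P3 has the highest share, and the remaining group is the largest at P0, P3 and P7 but holds 1 of 5 cells at P21.

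Contractile genes were far higher in members than in all other cells of the same library. Acta2 lies on the minus strand of chromosome 19 (mm10 chr19:34241090-34255590), Tagln at chr9:45929619-45936058, Myl9 at chr2:156775420-156781658 and Myh11 at chr16:14194535-14291372 in GENCODE M21. Members had 11612, 10357, 7864 and 8850 UMIs of Acta2 per 1000000 UMIs summed over the cells (CPM) at P0, P3, P7 and P21, against 40.2, 94.6, 27.8 and 4.69 CPM in other cells. Tagln, an actin-binding calponin relative, stood at 3032, 2746, 3091 and 1414 CPM in members and at 16.1, 30.3, 14.9 and 2.05 CPM in the others. Myl9, the regulatory light chain of smooth muscle myosin, had 5689, 4558, 3961 and 3960 CPM in members and 60.01, 113, 44.2 and 4.39 CPM in the others. Each of these genes was present in nearly every member: Tagln had a UMI in 371 and Myl9 in 392 of the 393. The beta-tropomyosin gene Tpm2 was found in 384 members, with 1928, 2708, 2034 and 1616 CPM, against 31.4, 88.9, 30.2 and 7.47 CPM in the other cells.

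Later genes of the smooth muscle programme reached fewer members. Mylk, the kinase that activates the light chain, was seen in 323 members, at 1070, 880, 789 and 1131 CPM against 9.87, 20.2, 15.3 and 2.93 CPM in other cells. Cnn1, the smooth muscle calponin, was seen in 162 members, at 465, 388, 421 and 80.8 CPM against 1.22, 5.08, 0.843 and 0.439 CPM. The gamma smooth muscle actin gene Actg2 was seen in 124 members, at 695, 489, 423 and 0 CPM against 1.997, 4.19, 1.69 and 0.146 CPM. Myh11 was seen in 135 members, at 353, 308, 184 and 808 CPM against 0.998, 2.93, 0.963 and 0.146 CPM. Of 74 cells with at least 3 Myh11 UMIs in the whole series, 70 were members, so this gene was nearly confined to them by that gate. Markers of the most mature muscle were thinly covered: Des, the muscle intermediate filament, had 17 UMIs over all members, Pln, the regulator of the calcium pump, 21, and Myocd, the coactivator of the programme, 20.

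By the list counts, 2707 genes were measured, meaning at least 100 CPM, 20 UMIs and 5 cells in the members or the other cells of at least 1 of P0, P3 and P7. Of these 420 (15.5%) stood 2-fold or more higher in members than in the other cells in all of P0, P3 and P7, after 20 CPM were added to each level, and 395 (14.6%) were lower by the same rule. The rule used the same cells, so nothing is read from the members' counts against these shares. Of the 21 genes of the contractile apparatus 19 were measured, 17 were higher and none was lower, with a median log2 ratio of 3.76 against -0.10 over all measured genes. All 13 measured of 19 focal adhesion and LIM-domain genes were higher (median 2.23), among them Vcl, the adhesion protein vinculin, and Flna, an actin cross-linker. The smooth muscle markers gave 9 higher of 10 measured (median 3.93), and the 7 olfactory neuron markers were all lower (median -4.33), of which Omp and Gap43 were limited by the rule.

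Among the 20 measured genes that stood highest over other cells at P0, P3 and P7 were Acta2, Tagln, Myl9, Tpm2, S100a6, Inmt, Mylk, Cxcl12, Actg2, Sfrp2, Cnn1, Fst, Tpm1, Cldn11, Aqp1, Dcn, 1500015O10Rik, Igfbp7 and Cnn2. They thus mix contractile with stromal genes. Aqp1, the water channel, was carried by 298 members, at 633, 1065, 847 and 849 CPM, against 25.1, 42.0, 44.9 and 9.96 CPM in other cells.

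The promoters of contractile genes were searched for the element that the field ties to this programme, the CArG box, which binds serum response factor. It consists of CC, 6 bases of A or T, and GG, and it reads alike on both strands. In RefSeq's promoter table (GRCm38.p6, the build also named mm10) 18 of the 21 contractile apparatus genes had an entry, the others being Actg2, Myh11 and Tagln. Within 250 bases before the annotated start, a strict box was found in 3 of the 18 (Myl9, Myl6 and Cnn2), and in 1.62% of 27025 genes. With at most 1 G or C allowed among the 6 central bases it was found in 4 of the 18, Acta2 added, and in 9.78% of all genes. The looser box was also found in 3 of 15 fibrillar and elastic matrix genes with an entry (Col1a2, Col6a3 and Fbln2). It was found in 3 of 14 focal adhesion and LIM-domain genes and in 1 of 13 smooth muscle markers. It was thus not particular to the contractile genes. In these other lists the strict box was found only in Vcl. Matches in these windows are a description of letters, not of binding. The last 170 bases before the start are shown for 3 of the 4 contractile genes with a box, for Cnn1, which had none, and for Rgs5, with boxes of the looser kind in capitals.
Acta2: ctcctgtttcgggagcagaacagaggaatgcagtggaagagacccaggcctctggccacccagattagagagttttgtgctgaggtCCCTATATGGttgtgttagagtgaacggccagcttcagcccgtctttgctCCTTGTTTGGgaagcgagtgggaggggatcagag
Myl9: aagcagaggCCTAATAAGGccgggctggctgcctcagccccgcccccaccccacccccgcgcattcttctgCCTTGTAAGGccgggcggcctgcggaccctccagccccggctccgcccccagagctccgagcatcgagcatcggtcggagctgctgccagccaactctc
Cnn2: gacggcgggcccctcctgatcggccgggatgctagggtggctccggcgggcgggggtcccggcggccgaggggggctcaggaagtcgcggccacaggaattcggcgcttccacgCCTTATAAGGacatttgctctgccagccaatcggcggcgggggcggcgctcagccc
Cnn1: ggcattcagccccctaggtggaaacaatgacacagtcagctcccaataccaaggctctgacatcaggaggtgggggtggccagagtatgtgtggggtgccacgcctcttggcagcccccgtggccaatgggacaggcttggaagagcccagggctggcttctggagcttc
Rgs5: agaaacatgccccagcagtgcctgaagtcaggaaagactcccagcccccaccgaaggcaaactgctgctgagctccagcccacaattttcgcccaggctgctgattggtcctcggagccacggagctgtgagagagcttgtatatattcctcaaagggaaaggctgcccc
These stretches lie at chr19:34255374-34255543 on the minus strand for Acta2, chr2:156775294-156775463 on the plus strand for Myl9, chr10:79988430-79988599 on the plus strand for Cnn2, chr9:22099083-22099252 on the plus strand for Cnn1 and chr1:169655331-169655500 on the plus strand for Rgs5. The Acta2 boxes start at -84 and -34 relative to the annotated start, those of Myl9 at -161 and -99, and that of Cnn2 at -56. In both Acta2 boxes and in the second box of Myl9, 1 central base departs from the strict motif. No such box is in the Cnn1 or Rgs5 window, nor in those of the 9 pericyte list genes with an entry. Cnn2, a calponin of non-muscle cells too, was higher in members, at 829, 969, 953 and 485 CPM, against 34.8, 69.0, 44.1 and 14.9 CPM in other cells.

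For the description, each member was put into 1 of 4 groups, asking first for 3 keratin UMIs, then for 3 Rgs5 UMIs, then for 3 Myh11 UMIs. This gave 10 keratin cells, 60 Rgs5 cells, 35 cells with Myh11 but not Rgs5, and 288 remaining cells. The Rgs5 group held 9, 39, 8 and 4 members at P0, P3, P7 and P21, the Myh11 group 6, 24, 5 and 0, and the remaining group 50, 175, 62 and 1. At P0, P3 and P7 the Rgs5 group made up 13.8% (6.53 to 24.7%), 15.7% (11.4 to 20.9%) and 10.7% (4.72 to 19.9%) of members, shares whose intervals overlap. Acta2 per cell had medians of 22.5 UMIs in the keratin, 28 in the Rgs5, 90 in the Myh11 and 23 in the remaining group. Depth was alike in the medians, at 3893.5, 3791.5, 4410 and 3990.5 UMIs per cell.

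**Figure D2:**
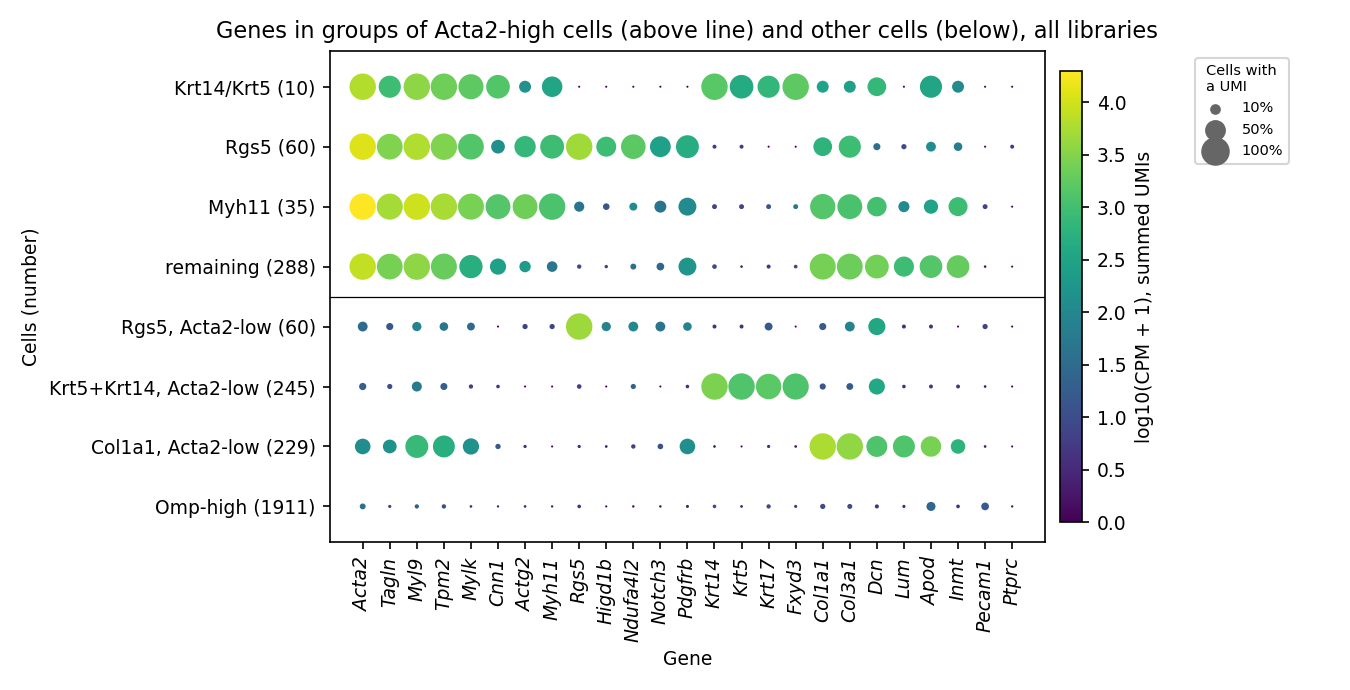
Dot plot of 25 genes (x axis) in the 4 groups of Acta2-high cells above the line and in 4 sets of other cells below it (y axis, cell numbers in brackets), all libraries summed. Dot area is the percentage of cells with a UMI and colour is log10(CPM + 1): contractile genes fill the upper 4 rows, while Krt14, Rgs5 and Lum each mark a different one of these 4 rows.

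The Rgs5 group carried further pericyte genes. Rgs5 itself (mm10 chr1:169655501-169695813) stood at 4849 CPM (4569 to 5142) in these 60 cells, and at 0, 44.1 and 6.85 CPM in the keratin, Myh11 and remaining groups. Higd1b, a mitochondrial protein gene much used as a pericyte marker, had 899 CPM there, against 0, 12.6 and 5.13 CPM. Ndufa4l2, a respiratory-chain related gene of mural cells, had 1616 CPM, against 0, 113 and 35.9 CPM. Cox4i2, a cytochrome oxidase subunit isoform, had 613 CPM, against 0, 31.5 and 27.4 CPM. Notch3, the Notch receptor of mural cells, had 291 CPM, against 0, 44.1 and 24.0 CPM. Kcnj8, a potassium channel subunit, followed with 191 CPM, against 0, 18.9 and 15.4 CPM. None of these other genes was used to gate the group. All 60 cells had a UMI of Higd1b, Kcnj8, Ndufa4l2 or Cox4i2, and 54 had at least 3. These 4 genes are among the leading genes of the same cells, so the counts are a description and not a test.

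Pdgfrb, the receptor by which mural cells are recruited to vessels, was less particular to this group. It had 474 CPM and was seen in 45 of 60 cells, against 0 CPM in the keratin, 113 in the Myh11 and 175 CPM in the remaining group, where 131 of 288 cells had a UMI. Vtn, a marker of brain pericytes, had only 6 UMIs in the Rgs5 group and none in the other groups. Other leading genes of the Rgs5 group were Nrarp, a Notch target, with 439 CPM against 0, 88.1 and 3.42 CPM, and Gja4, a connexin of vessels, with 330 CPM against 0, 62.9 and 5.13 CPM. Igfbp7, a secreted vascular protein, had 5684 CPM against 263, 3650 and 1702 CPM.

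Rgs5 and smooth muscle myosin overlapped in part. Of 60 members with 3 Rgs5 UMIs, 33 (55.0%) also had 3 Myh11 UMIs, which is 47.1% of the 70 with Myh11. Only 2 of the 60 (3.33%) had 10 Col1a1 UMIs. Dcn, the collagen-binding proteoglycan decorin, was at 34.8 CPM in the Rgs5 group, in 4 of 60 cells, against 717, 1045 and 2426 CPM in the keratin, Myh11 and remaining groups. The Rgs5 group did contain collagen RNA at lower levels, with Col3a1 at 899 CPM and in 42 of 60 cells, against 263, 1152 and 2188 CPM in the same other groups. Tnmd, tenomodulin, known as a tendon gene, was at 491 CPM in 35 of the 60 cells, against 0, 277 and 59.0 CPM.

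By age, the 9 Rgs5 cells of P0 had 4401 CPM of Rgs5, the 39 of P3 3934, the 8 of P7 8523 and the 4 of P21 7256 CPM. Higd1b followed the same order in these cells, with 865, 588, 2009 and 1878 CPM, so both were higher at P7 and P21 than at P0 and P3. Other pericyte genes did not follow this order. Ndufa4l2 had 2043, 1277, 2784 and 1793 CPM, Notch3 275, 272, 459 and 85.4 CPM, and Pdgfrb 354, 468, 373 and 1110 CPM. Acta2 did not follow it either, with 10492, 12850, 7949 and 14683 CPM. The P7 and P21 values rest on 8 and 4 cells.

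Outside the members, most cells with Rgs5 were of another kind. In the whole series 150 cells had at least 3 Rgs5 UMIs: 60 were members, and 60 had at most 2 Acta2 UMIs with Omp and Gap43 within the limits. Members held 34.1% of all Rgs5 UMIs and the Acta2-low cells 46.8%, but 2 of these cells held 493 and 297 of the 1549 UMIs of that set, whose median was 6. Of the 60 Acta2-low cells, 49 had at least 3 UMIs of Krt18, a keratin of simple epithelium, and Cyp2g1, an olfactory cytochrome P450 of supporting and gland cells, against 0 of 60 Rgs5 members. Only 7 of these 60 cells had 3 UMIs of the 4 pericyte genes, and none had both. The largest single-cell Rgs5 counts of the series, at P7 and P21, were in this Acta2-low set, against at most 58 in a member. Their other leading genes, named after the values were seen, included Wfdc18, Scgb1c1 and Sult1c1. A further 22 cells had 3 to 9 Acta2 UMIs, and 20 of them had 3 pericyte gene UMIs and none the epithelial ones. Rgs5 alone therefore did not mark mural cells in these libraries, while Rgs5 with at least 3 Acta2 UMIs came with pericyte genes in 74 of 82 cells.

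The Myh11 group was the richest in contractile RNA. Acta2 had 21688 CPM in these 35 cells, against 6331, 11941 and 8068 CPM in the keratin, Rgs5 and remaining groups. Actg2 had 2234 CPM, against 143, 730 and 218 CPM, and Myl9 had 9239 CPM, against 3703, 6057 and 3639 CPM. Cnn1 had 1397 CPM there and 1338 CPM in the keratin group, against 139 CPM in the Rgs5 and 281 CPM in the remaining group. Ppp1r14a, an inhibitor of myosin phosphatase, had 673 CPM in 22 of 35 cells, against 95.6, 317 and 62.5 CPM. P2rx1, an ATP-gated channel of smooth muscle, had 113 CPM in 8 cells, against 0, 13.04 and 1.71 CPM. Fbxl22, an F-box protein of striated and smooth muscle, had 812 CPM in 28 cells, against 71.7, 230 and 168 CPM. Rspo1, a secreted amplifier of Wnt signals, had 768 CPM in 23 cells, against 119, 13.04 and 340 CPM.

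These cells also carried stromal genes at higher levels than the Rgs5 cells. Dcn was seen in 19 of 35 cells, and S100a6, a calcium-binding protein of fibroblasts and muscle, had 7798 CPM, against 1887, 834 and 5417 CPM in the keratin, Rgs5 and remaining groups. Cxcl12, the chemokine of stromal cells, had 1158 CPM, against 311, 161 and 1236 CPM. Lum, the proteoglycan lumican, was at 107 CPM, against 0, 8.69 and 939 CPM. In Mustn1, which encodes a muscle nuclear protein, the Myh11 group was level with the Rgs5 group, at 806 CPM, against 0, 800 and 30.8 CPM.

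The keratin group held 10 cells, all at P3. They had 2 to 15 Krt14 UMIs each, 11 to 55 Acta2 UMIs and 3 to 40 Myl9 UMIs, and every one of them had at least 3 Fxyd3 UMIs, a small epithelial membrane protein that was not used in the rule. Beside 123 P3 cells with at least 3 UMIs each of Krt5 and Krt14 and at most 2 of Acta2, which are basal cells by those genes, they had 6331 CPM of Acta2 against 29.9, 1338 CPM of Cnn1 against 0, and 1744 CPM of Mylk against 5.61. Krt14 had 1505 CPM against 2603, Krt5 430 against 1271, and Krt17 669 against 1475 CPM. The 2 sets were gated differently on Acta2, Krt14 and Krt5, so nothing is read from the differences in these 3 genes. Krt15 had 23.9 CPM against 4289, Trp63, the basal cell master regulator, 71.7 against 396, and Sfn, an epithelial 14-3-3 protein, 0 against 710 CPM. Krt14, Krt5 and Acta2 were thus present in them by the rule, Cnn1 and Mylk came with these, and Krt15 and Sfn were at or near 0.

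Several genes were high in these 10 cells and nearly absent from both the basal cells and the other P3 members. Pcp4, a calmodulin-binding peptide, had 1553 CPM in 8 of 10 cells, against 0 CPM in the basal cells and 42.7 CPM in the other members, though part of its 3' end is shared with Igsf5. Il17b, a cytokine gene, had 979 CPM, against 0 and 14.9 CPM, with 46.3% of its UMIs in the group in 1 cell. Lgals7, a galectin of stratified epithelia, had 1457 CPM, against 44.9 and 15.9 CPM. Osr1, a zinc finger factor, had 645 CPM, against 1.87 and 13.9 CPM, with 33.3% of its UMIs in the group in 1 cell. Sox10, a factor of glia and of some gland cells, had 143 CPM in 4 of the 10 cells, against 0 CPM in the Rgs5, 12.6 in the Myh11 and 1.71 CPM in the remaining group. Oxtr, the oxytocin receptor of mammary myoepithelium, had 0 UMIs here and 1 in all members. All 13 pericyte genes and all 10 endothelial genes were at 0 in this group, and Col1a1 was seen in 2 of its cells.

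The P3 library also had the most basal cells with keratin, so its stray RNA was measured beside this group. Of 374 P3 cells with 10 or more Omp UMIs, 5 (1.34%) had a Krt14 or Krt5 UMI, while 2 had 3 of them. The keratin cells were 0.311% of P3 cells and 4.03% of P3 members (1.95 to 7.29%). They were 0 of 65 members at P0 and 0 of 75 at P7. The exact upper bounds there, 5.52% and 4.80% of members, lie above the P3 share of 4.03%. By Scrublet, a caller of doublets, 2 of the 10 were among the 83 highest-scored of 3220 P3 cells, against 10 of all 248 P3 members. Whether 2 cells in 1 droplet contribute to the group was not tested beyond this.

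The remaining 288 cells, the majority, were led by matrix genes. Lum had 939 CPM in 166 of them, against 0, 8.69 and 107 CPM in the keratin, Rgs5 and Myh11 groups. Col1a1 had 2499 CPM and was seen in 279 cells, against 311, 600 and 1391 CPM, and Dcn 2426 CPM in 233 cells. Apod, the lipid-binding apolipoprotein D, had 1396 CPM in 212 cells, against 334, 122 and 315 CPM. Inmt, an indole methyltransferase of stromal tissue, had 1893 CPM in 212 cells, against 119, 60.8 and 894 CPM. Sfrp2, a secreted Wnt modulator, had 2984 CPM in 264 cells, against 454, 248 and 1429 CPM. Rgs5 was seen in 6 of 288 cells (6.85 CPM) and Myh11 in 45, while Tagln was still seen in 273 and Myl9 in 287. Cnn1 was seen in 107 of these cells and Actg2 in 52.

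**Figure D3:**
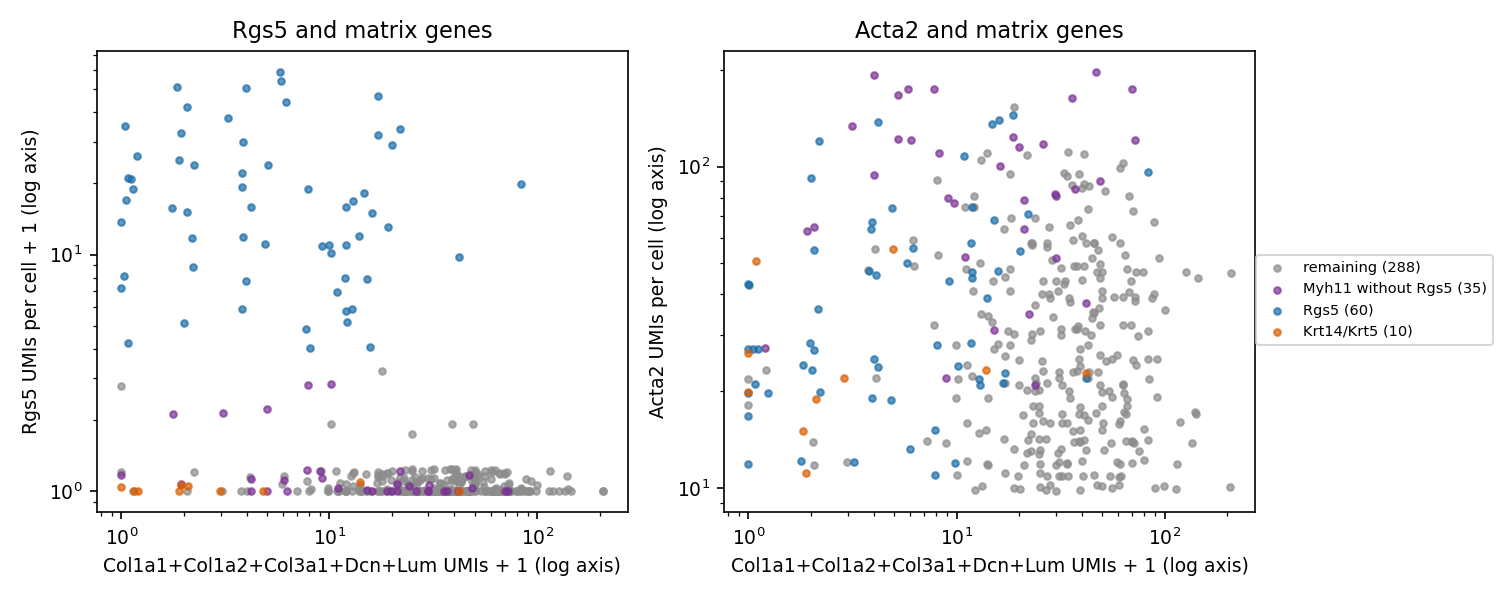
Each point is 1 Acta2-high cell, coloured by group. Summed UMIs of Col1a1, Col1a2, Col3a1, Dcn and Lum plus 1 (x axes, log scale) are plotted against Rgs5 UMIs plus 1 (left) and Acta2 UMIs (right), also on log axes and with slight jitter: the Rgs5 group has a median of 4 matrix UMIs and the remaining group 34.5, while Acta2 spans a like range in both.

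The remaining cells were set beside collagen cells low in Acta2. There were 229 cells with at least 10 Col1a1 and at most 2 Acta2 UMIs (Omp and Gap43 within the limits). That set was gated on Col1a1, so collagen must be high in it. The remaining group had 637, 833 and 1288 CPM of Lum at P0, P3 and P7, against 1901, 1115 and 1602 CPM in the Acta2-low collagen cells. Apod had 891, 1107 and 2440 CPM in the remaining group, against 1793, 1454 and 4407 CPM. Other stromal genes ran the other way. Cxcl12 had 1313, 1246 and 1229 CPM in the remaining group, against 412, 255 and 317 CPM, and Inmt had 1413, 1644 and 2842 CPM, against 500, 330 and 1318 CPM. Fst, the activin antagonist follistatin, had 591, 518 and 389 CPM in the remaining group, against 29.4, 57.1 and 49.2 CPM. For Cxcl12, Inmt and Fst the 3 ages of the remaining group did not overlap those of the Acta2-low cells. For Lum and Apod they did, although at each age the remaining group was the lower. The contractile genes Myl9 and Tpm2 were intermediate in the Acta2-low cells, at 676, 807 and 755 CPM and at 363, 555 and 481 CPM.

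Receptors and factors of the vessel wall were low but present. Of 27 vasoactive receptor and cyclic GMP genes 6 were measured against other cells, and all 6 were higher in members (median log2 2.22). Over all measured genes 15.5% were higher. Rgs5 is among the 6, and a gene can be measured through members alone, as Ednra was, so nothing is read from this count. Ednra, the endothelin A receptor, had 101, 127, 86.4 and 80.8 CPM in members at the 4 ages, against 4.33, 8.31, 4.22 and 0.879 CPM in other cells. Gucy1a3, a subunit of the nitric oxide receptor, was highest in the Rgs5 group, with 317 CPM in 38 of 60 cells, against 23.9, 107 and 45.4 CPM in the keratin, Myh11 and remaining groups. Pde5a, the phosphodiesterase that ends the cyclic GMP signal, had 95.6 CPM in the Rgs5 group, against 0, 170 and 104 CPM. The angiotensin receptor gene Agtr1a had 1 UMI in all members. Among transcription factors, Foxs1, a forkhead factor of pericytes, had 139 CPM in the Rgs5 group, against 0, 69.2 and 36.8 CPM, and Prrx1, a mesenchymal homeobox factor, had 317 CPM against 143, 352 and 536 CPM. Tbx18 and Foxd1, factors of mural cells in other organs, had 1 UMI each in all members.

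Of 24 basement membrane and integrin genes 10 were measured, and 9 of these were higher in members than in other cells (median log2 2.26). Over all measured genes 15.5% were higher, and here too nothing is read from the count. Col4a1, a chain of type IV collagen, had 960 CPM in the Rgs5 group, against 358, 384 and 346 CPM in the keratin, Myh11 and remaining groups. Eln, the elastin gene, had 934 CPM in the Rgs5 group, against 478, 1328 and 700 CPM. Itga8, an integrin of smooth muscle and fibroblasts, had 30.4 CPM in the Rgs5 group, against 0, 107 and 104 CPM.

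Several defining markers of other cell types were at or near 0 in members, while the endothelial list as a whole was not. Of the 10 endothelial genes, Cdh5 and Tek had 0 UMIs, Kdr and Cldn5 1 each and Pecam1 2. Summed, the list stood at 89.7, 82.9, 89.3 and 162 CPM in members at P0, P3, P7 and P21, against 57.8, 76.1, 99.4 and 34.9 CPM in other cells, and 8 of its 10 genes had a UMI. Its other UMIs were 6 of Flt1, 11 of Emcn, 14 of Plvap and 30 of Egfl7. Of its 138 UMIs in members 73 were of Esam, an adhesion molecule of vessels, with 239 CPM in the Rgs5 group, against 0, 101 and 1.71 CPM in the keratin, Myh11 and remaining groups. The leukocyte gene Ptprc had 1 UMI and the skeletal muscle genes Myod1 and Acta1 none. Tubb3, a neuronal tubulin, had 50.4, 104, 101 and 40.4 CPM in members, against 1877, 2121, 2092 and 1402 CPM in other cells. The part of other cells in these levels was not tested.

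Between ages, 1886 genes were measured in members for P3 over P0, of which 43 (2.28%) passed 2-fold upward and 12 (0.636%) passed 2-fold downward. For P7 over P0, 1936 were measured, of which 79 (4.08%) were higher and 44 (2.27%) lower. Both comparisons share the P0 library. A gene could be measured through either age alone, which favours a call toward that age. The median log2 ratio over all measured genes was -0.06 in each. P21 had 5 members, too few for this, and is given as levels.

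The contractile apparatus was close to the middle of all genes. Of 19 measured genes 1 was higher and none lower at P3 (median log2 -0.14), and the same counts and median held at P7. The exception was Myh10, a non-muscle myosin heavy chain, with 126 CPM at P3 against 28.0 at P0 (4.49-fold, 1.88 to 14.1). At P7 it had 133 CPM (4.73-fold over P0, 1.89 to 15.2). Acta2 in members was 0.892-fold (0.851 to 0.935) at P3 and 0.677-fold (0.639 to 0.717) at P7 relative to P0, under the 2-fold rule in both. Acta2 also chose the members, at 10 UMIs whatever the depth. Median depth per member was 2732, 4120 and 4687 UMIs at P0, P3 and P7. The part of this limit in the Acta2 ratios was not tested. Myh11 was 0.872-fold (0.664 to 1.16) at P3 and 0.522-fold (0.363 to 0.751) at P7. Mustn1 was the smooth muscle marker called lower at P7, with 112 CPM against 263 at P0 (0.427-fold, 0.272 to 0.666). In the remaining group of members its log2 ratio was -0.42, under 2-fold, while that of Actg2 was -1.60 at P3 and -1.11 at P7, past it. Ppp1r14a was also lower at P7, with 57.6 CPM against 230 at P0 (0.251-fold, 0.139 to 0.438).

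**Figure D4:**
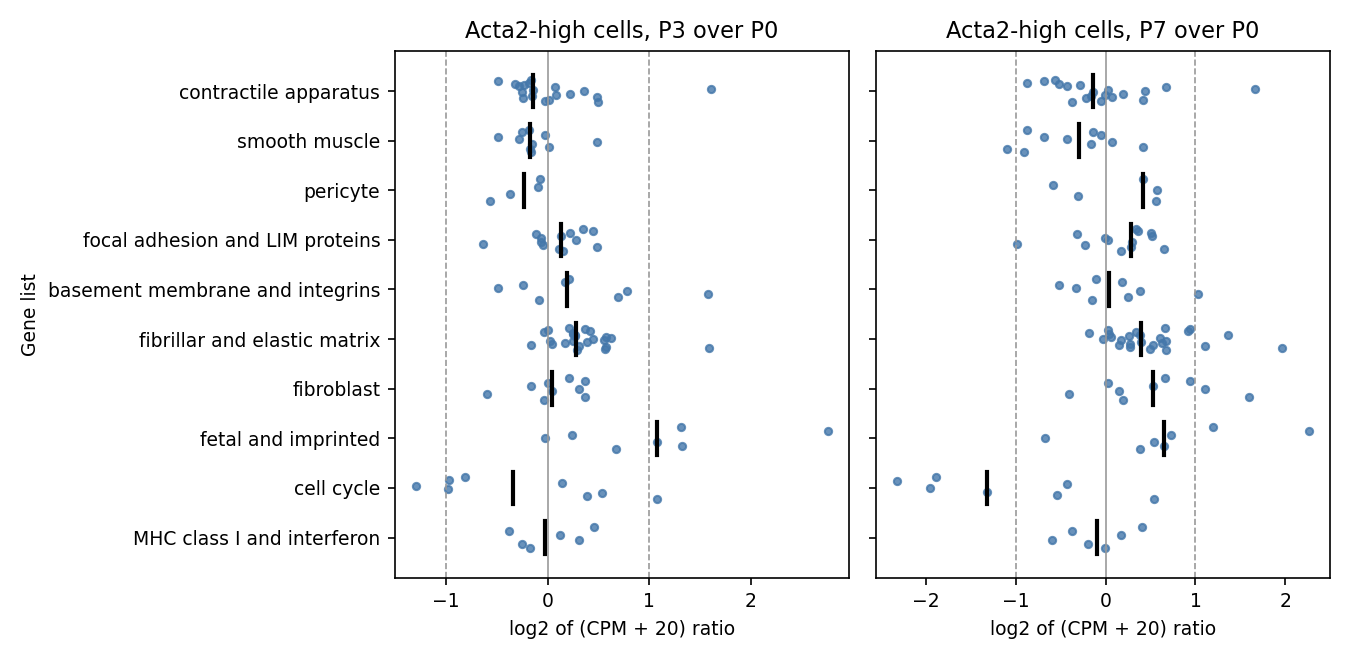
Log2 ratios of CPM plus 20 (x axes) of the measured genes of 10 lists (y axis) in Acta2-high cells for P3 over P0 (left) and P7 over P0 (right). Points are genes, black bars list medians and dashed lines 2-fold: the contractile median is -0.14 in both panels, the fetal and imprinted median 1.08 and 0.65, and the cell cycle median -0.34 and -1.32.

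Several fetal and imprinted genes were higher at P3 than at P0, and fewer at P7. Of 7 measured, 4 were higher at P3 (Igf2, H19, Cdkn1c and Meg3; median log2 1.08) and 2 at P7 (Igf2 and H19; median 0.65), none lower. H19, an imprinted non-coding RNA next to Igf2, had 202 (23 of 65 cells), 1478 (178 of 248), 1046 (26 of 75) and 40.4 CPM (1 of 5) at P0, P3, P7 and P21. That is 7.33-fold (5.27 to 10.5) at P3 over P0 and 5.18-fold (3.67 to 7.52) at P7 over P0. Igf2, the insulin-like growth factor 2 gene, had 191, 503, 461 and 80.8 CPM, or 2.64-fold (1.87 to 3.85) at P3 and 2.42-fold (1.66 to 3.61) at P7. An overlapping readthrough gene, Gm49394, shares the whole 3' end of Igf2. Meg3, a maternally expressed non-coding RNA, had 471, 1208, 752 and 40.4 CPM. Cdkn1c had 364, 790, 539 and 162 CPM. In the remaining group its log2 ratio for P3 over P0 was 0.93, under 2-fold.

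These RNAs were not confined to members. H19 in the Acta2-low collagen cells had 2107, 4245 and 1952 CPM at P0, P3 and P7, above the members at each of these ages and also highest at P3. In all other cells it stood at 81.0, 341, 109 and 0.439 CPM. Of cells with 10 or more Omp UMIs, 1.77%, 3.74%, 1.36% and 0% had an H19 UMI. In members thinned to 1500 UMIs the share with an H19 UMI was 27.9% at P0, 53.1% at P3 and 29.6% at P7, against unthinned shares of 35.4%, 71.8% and 34.7%. By this share P7 lay near P0, while its CPM was 5.18-fold higher, since 26 cells held the 363 H19 UMIs of P7 and 23 cells the 36 of P0. The remaining group gave log2 ratios of 2.84 at P3 and 2.32 at P7 for H19, close to 2.76 and 2.26 in all members. In the Rgs5 group H19 had 196, 1094 and 230 CPM at P0, P3 and P7, from 5, 173 and 8 UMIs, so there P7 lay near P0. The Myh11 group had 43.9, 347 and 150 CPM, from 1, 38 and 4 UMIs.

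A few matrix genes were higher at P7. Fibrillar and elastic matrix had a median log2 of 0.28 at P3, with 1 of 24 measured genes higher, and of 0.39 at P7, with 3 of 25 higher and none lower in either. Ogn, the small proteoglycan osteoglycin, had 174 CPM at P3 (3.89-fold over P0, 1.93 to 9.15) and 233 at P7 (5.20-fold, 2.52 to 12.5), against 44.8 CPM at P0. Lum had 1063 CPM at P7 against 482 at P0 (2.21-fold, 1.74 to 2.82). In the remaining group its log2 ratio was 0.99, just under 2-fold. Col12a1, a collagen of fibril surfaces, had 320 CPM at P7 against 112 at P0 (2.85-fold, 1.76 to 4.85). Col1a1 itself was 1.59-fold (1.39 to 1.81) at P7, and Col3a1 1.02-fold (0.891 to 1.17). The share of members with at least 10 Col1a1 UMIs was 12.3% at P0, 35.5% at P3 and 49.3% at P7. With cells thinned to 1500 UMIs, the share with 1 Col1a1 UMI was 73.8%, 76.3% and 84.5%. Among fibroblast genes Apod was also called, with 2034 CPM at P7 against 661 at P0 (3.08-fold, 2.53 to 3.77). In other cells Apod stood at 163 CPM at P7 and 76.0 at P0.

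Some skeletogenic genes were higher than at P0, of 10 in the list. Cthrc1, a secreted collagen triple-helix protein of remodelling stroma, had the largest ratio in both comparisons when 20 CPM were added to each level. It had 1 UMI in 1 of 65 members at P0 (5.60 CPM), 221 in 41 of 248 at P3 (211 CPM) and 94 in 18 of 75 at P7 (271 CPM). Without that addition the ratio to P0 was 37.6-fold (6.68 to 1491) at P3 and 48.3-fold (8.46 to 1928) at P7, bounds that rest on that 1 UMI. All but 1 of its 61 carrier cells were in the remaining group, and none was in the Rgs5 or Myh11 group. Cthrc1 in Acta2-low collagen cells had 637, 1137 and 738 CPM at P0, P3 and P7. Aspn, the proteoglycan asporin, had 123, 241 and 507 CPM at P0, P3 and P7, and Omd, osteomodulin, 39.2, 80.1 and 248 CPM. At P3 only Cthrc1 of 2 measured skeletogenic genes was called, and at P7 all 3 measured ones were (median log2 2.18). Cthrc1 at both ages and Omd at P7 met the limits for measured genes at the later age only. That rule favours a higher call for them, so nothing further is read from these counts or the median. Omd was at 0 UMIs in the Rgs5 group, whereas Aspn was seen in 20 of its 60 cells.

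Several cell cycle genes were lower at P7. Of 7 measured, 4 were at least 2-fold lower (Ccnb2, Birc5, Tyms and Rrm2, with a list median log2 of -1.32) and none higher. All 4 met the limits for measured genes at P0 only. That rule favours a lower call for them, so nothing further is read from this count or median. At P3, of 8 measured, Tyms was lower and Cdkn1c, a cycle inhibitor and imprinted gene, was higher (median -0.34). Birc5, the mitotic protein survivin, had 8.64 CPM at P7 against 123 at P0 (0.0701-fold, 0.0134 to 0.233), from 3 and 22 UMIs. In the remaining group, a subset set up after the data were seen, the median was -0.34 at P7 and 0.67 at P3. There Tyms (-0.93) and Rrm2 (-0.78) at P7 and Tyms (-0.23), Pbk (-0.59) and 2810417H13Rik (-0.16) at P3 were under 2-fold. Ccnb2, a mitotic cyclin, had 17.3 CPM at P7 against 118 at P0 (0.147-fold, 0.0485 to 0.376). Pbk, a mitotic kinase, was the gene with the lowest ratio at P7, with 2 UMIs (5.76 CPM) against 27 (151 CPM) at P0 (0.0381-fold, 0.00439 to 0.152). By cells, at least 3 UMIs of 8 cycling genes were found in 8 of 65 members at P0 (12.3%, 5.47 to 22.8%), 21 of 248 at P3 (8.47%, 5.32 to 12.7%), 3 of 75 at P7 (4.00%, 0.833 to 11.2%) and 0 of 5 at P21. These intervals overlap. Of cells with 10 or more Omp UMIs 0.590%, 1.604%, 0.272% and 0.241% passed the same gate. By group, 5 of 60 Rgs5 cells, 2 of 35 Myh11 cells, 25 of 288 remaining cells and 0 of 10 keratin cells passed it.

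The largest single ratios, again with 20 CPM added, included genes outside the lists. At P3 over P0 the highest after Cthrc1 and H19 were Pcp4, Emb, Gm8730, Igfbp3, Auts2, Matn4, Myh10 and Ogn. Pcp4 had 108 UMIs at P3 and 0 at P0, at least 6.12-fold higher against a floor of 3 UMIs at P0, with an exact lower bound of 4.89 by counting error, and 65 of the 108 were in the 10 keratin cells. Igfbp3, a binding protein of insulin-like growth factors, had 321 CPM at P3 against 72.9 at P0 (4.41-fold, 2.54 to 8.37), but at P7 it had 51.9 CPM. In other cells it was also highest at P3, with 13.2, 66.5 and 15.5 CPM at P0, P3 and P7. Emb had 1 UMI at P0, and Auts2 and Matn4 had 3 each, so their ratios of 18.4, 6.29 and 5.95 rest on those. Gm8730 shares 67.0% of its 3' end words of 31 bases with the ribosomal gene Rplp0, so its UMIs are uncertain. The lowest at P3, leaving out Omp, which the rule limits, included Gja1, the connexin 43 gene, with 168 CPM against 398 at P0 (0.422-fold, 0.318 to 0.563). At P7 it had 645 CPM, above P0, so Gja1 was lowest at P3. Jund, an AP-1 factor, had 332 CPM at P3 against 701 at P0 (0.473-fold, 0.385 to 0.586), and 648 CPM at P7. In the other cells of these libraries it was also lowest at P3, with 772, 407 and 576 CPM at P0, P3 and P7. The remaining genes of this end were Pbk, Tyms, 2810417H13Rik, Mlf1, Rnf14, Ak6 and Sdhb.

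At P7 over P0 the highest after Cthrc1 were Gm8730, Nrp2, Npnt, H19, Omd, Akap12, Cyp2e1, C1qtnf6 and Spp1. Nrp2, a semaphorin and VEGF co-receptor, had 199 CPM at P7 against 11.2 at P0, where it had 2 UMIs (17.7-fold, 4.73 to 149). Npnt, nephronectin, a ligand of the integrin that Itga8 encodes, had 308 CPM at P7 against 44.8 at P0 (6.87-fold, 3.37 to 16.3). Akap12, a scaffold of protein kinase A, had 288 CPM at P7 against 50.4 at P0 (5.71-fold, 2.89 to 12.9). Of the Spp1 UMIs at P7, 46.2% were in 1 cell, and Cyp2e1 and C1qtnf6 had 3 UMIs each at P0. Pde5a was the vasoactive gene called at P7, with 141 CPM against 44.8 at P0 (3.15-fold, 1.48 to 7.70). Sparc, a matrix-binding glycoprotein, was called in the basement membrane list, with 2987 CPM at P7 against 1457 at P0 (2.05-fold, 1.79 to 2.36). The lowest besides the mitotic genes included Tppp3 and Sec61g, the latter with 69.1 CPM at P7 against 275 at P0. Tppp3, a tubulin polymerization protein, had 28.8 CPM at P7 against 207 at P0 (0.139-fold, 0.0616 to 0.285). In the remaining group its log2 ratio was -0.73. The mitotic genes at this end were Pbk, 2810417H13Rik, Birc5, Tyms, Ccnb2, Cdc20 and Cenpa.

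**Figure D5:**
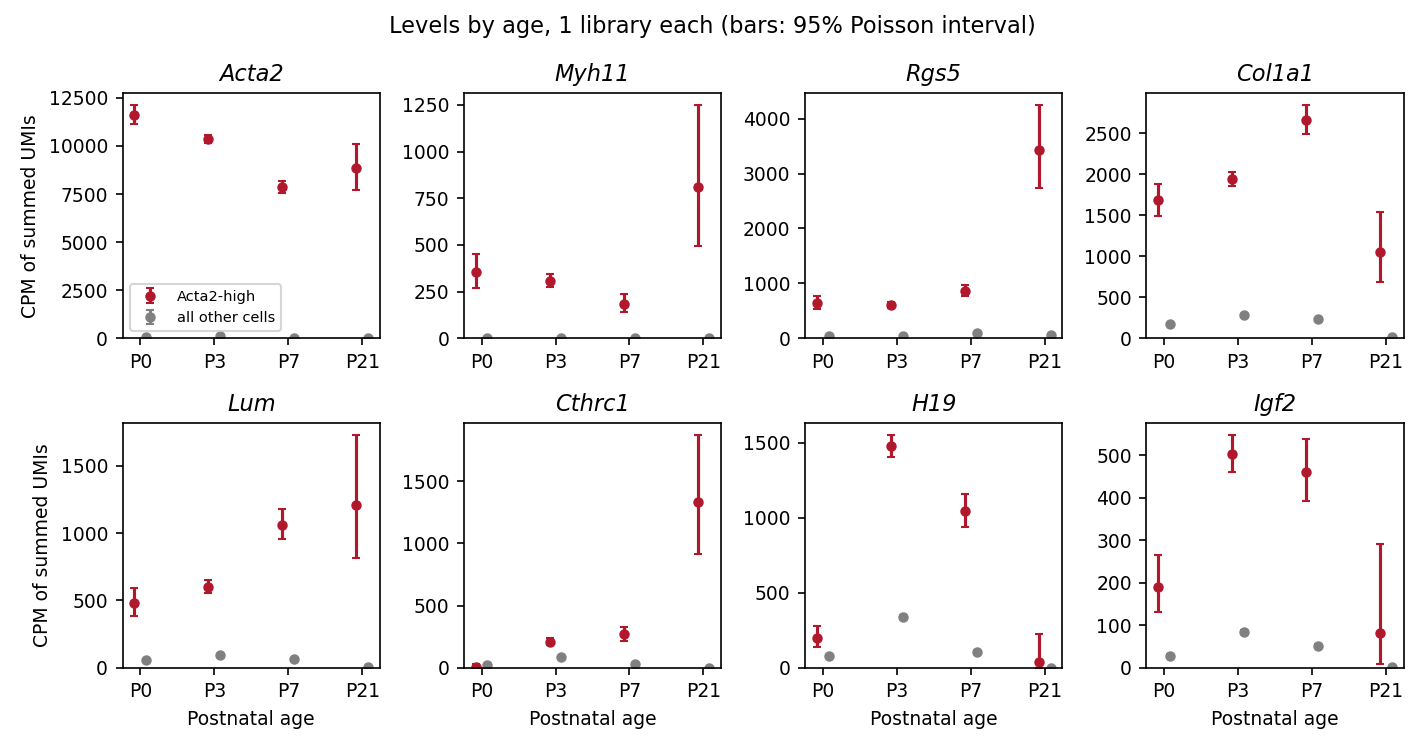
CPM of summed UMIs (y axes, linear, from 0) of 8 genes at P0, P3, P7 and P21 (x axes) in Acta2-high cells (red) and in all other cells (grey), with 95% Poisson intervals. Rgs5 has 3435 CPM at P21 against 604 to 858 CPM at the earlier ages, H19 is highest at P3 with 1478 CPM, and the P21 points rest on 5 cells.

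The 5 members of P21 can be given one by one. In 4 of them Rgs5 had 23, 41, 18 and 3 UMIs, Myh11 3, 10, 1 and 6, and Col1a1 and Dcn none. The fifth cell had 0 Rgs5 and 0 Myh11 UMIs, 26 of Col1a1 and 67 of Dcn, and at 13033 UMIs it was the deepest of all members. It held every P21 UMI of Col1a1, Dcn, Lum, Omd and Cthrc1 in members, so those P21 levels are the levels of 1 cell. Igfbp7 had 72, 49, 15 and 14 UMIs in the 4 Rgs5 cells and none in that cell. The share of Rgs5 cells among members was 80.0% (28.4 to 99.5%) at P21, and its lower bound lies above the upper bounds at P0, P3 and P7. As a share of all cells, the Rgs5 group was not larger at P21, with 0.334%, 1.21%, 0.448% and 0.283% at the 4 ages. The remaining group made up 1.86%, 5.43%, 3.47% and 0.0707% of all cells.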

How the data were processed

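Cells of 4 libraries of mouse olfactory epithelium, 1 per age, were read from UMI count tables deposited by the authors, in which each value is a raw, whole-number count of UMIs per gene and cell. Reads had been processed with Cell Ranger 2.1.1 on mm10, and Seurat is named, per the submitters' processing notes. The P0, P3, P7 and P21 tables summed to 9207027, 17770838, 8653791 and 6861044 UMIs. Labels do not say that ages were prepared together.

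From the counts, UMIs were summed over the chosen cells of a library and scaled to a total of 1000000 (CPM). Between groups, log2 ratios were taken after adding 20 CPM to each side. Measured genes had at least 100 CPM, 20 UMIs and 5 cells with a UMI in either group, and calls were made at 2-fold. No test was run, since each age had 1 library. Members and gene lists were chosen with earlier results of these data known. The genes named are the 20 that stood highest in members over other cells, the 10 at each end of each age comparison, the list genes that were called, the markers, and further leading genes of the groups, which were named after their values were seen. Some genes that this rule names are not reported here.

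Scrublet in scanpy 1.11.5 called 66 of 9110 cells doublets, 5 of them members, and these were kept. The 2-fold calls and the intervals of ratios were tested on simulated counts, and thinning was not. Promoters and gene positions came from RefSeq (GRCm38.p6) and GENCODE M21, where 95.1% of symbols matched. Shared 3' ends were checked by words of 31 bases. Python 3.11.15, numpy 2.4.6, scipy 1.17.1, pandas 2.3.3 and matplotlib 3.10.9 were used. Other cut-offs, scalings and subsets of members were tried as alternatives.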

Additional observations from a re-analysis of the deposited data

How the results depend on the processing

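The count of Acta2-high cells followed its threshold. At 5 or more Acta2 UMIs the share was 3.12% at P0 and 9.63% at P3, at 20 or more it was 1.49% at P0, 5.50% at P3 and 2.52% at P7, and with cells thinned to 1500 UMIs it was 8.75% at P3. Of members, 34.4% had 1 Myh11 UMI, 25.2% did after thinning, and 24.5% passed the Myh11 gate among those with 20 or more Acta2 UMIs. At 1 UMI the keratin share was 5.34%, and without the P3 library, an alternative added after seeing the data, it was 0%. The Col1a1 share was 87.3% at 1 UMI and 76.9% after thinning. The number of genes called depended on the settings. For P3 over P0 it was 13 higher and 1 lower with 100 CPM added, 26 lower with 5 CPM added, 200 higher and 27 lower when only 20 UMIs were asked, 19 lower with each member weighted equally, and 205 higher and 79 lower among Rgs5 members only. For P7 over P0 it was 23 higher and 12 lower with 100 CPM added, 76 lower with 5 CPM added, 159 higher when only 20 UMIs were asked, and 26 higher and 21 lower among Rgs5 members only. Among Rgs5 members the P3 over P0 medians were 0.35 for the contractile apparatus and 1.40 for fibrillar matrix. In them Gja1 (0.40) and Jund (0.22) at P3, and Apod (-0.28), Igf2 (-0.74), Mlf1 (0.12) and Col12a1 (-1.57) at P7, took the opposite sign in log2, from 9 Rgs5 cells at P0, and the cause was not tested. With median-of-ratios scaling a median log2 ratio of -0.07 was taken out of each comparison, which moved the ratios upward. The counts were then 51 higher and 9 lower at P3 and 92 higher and 36 lower at P7. Without barcodes shared between libraries, also added after seeing the data, they were 45 and 14 at P3 and 77 and 46 at P7. No paired analysis was possible because each age had 1 library, and for the same reason no replicate could be left out. The P21 library, with 5 members, limits every statement on that age to single cells.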

Other observations

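In the 288 remaining members Inmt was seen in 25 of 60 cells with Cthrc1, against 212 of all 288, a pair chosen after the values were seen. Cthrc1 alone was seen in 35 cells, Inmt alone in 187, both in 25 and neither in 41. At P0 the numbers were 0, 38, 1 and 11, at P3 24, 110, 16 and 25, and at P7 10, 39, 8 and 5. Thus 41.7% of the Cthrc1 cells and 11.8% of the Inmt cells had both. Some other genes gave like counts, with Inmt in 46 of 99 cells with Aspn, 27 of 58 with Omd and 11 of 32 with Epyc. Of 166 cells with Lum, 47 had Cthrc1 and 117 had Inmt.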
